A study of Mus musculus with 2 samples.

Results

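The histone genes of the adult mouse heart were taken as all genes with at least 1 protein-coding transcript and a symbol of the form Hist1h to Hist4h, H2af, H3f3 or H1f. This gave 82 of 55536 mouse genes: 67 clustered genes and 15 variant genes. The samples were the hearts of 2 male B6CASTF1/J mice, first-generation offspring of C57BL/6J and CAST parents, aged 8 to 10 months and untreated as far as the labels say. Each heart gave 1 library (replicate 1 from animal 2, replicate 2 from animal 4) made from 300 ng of total RNA with reduced ribosomal RNA and a strand-keeping kit. The labels give both animals the same donor entry, so the spread between the libraries may be partly technical. The series has 1 group and no contrast between conditions, and a tissue library cannot tell fewer cells of a type from less RNA per cell. Levels below are TPM, which measures RNA per length of transcript as a share of all RNA in the library, and ± is the SD over the 2 libraries (n = 2).

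Histones are the proteins around which nuclear DNA is wound: H2A, H2B, H3 and H4 form the core of the nucleosome, and H1 binds the DNA between nucleosomes. The clustered genes are mostly replication-dependent, which means that they are expressed when DNA is copied in S phase, and their mRNAs end just after a conserved stem-loop instead of in a poly(A) tail. Variant genes mostly lie alone in the genome, usually carry introns and poly(A) signals, and are expressed also outside S phase. Most heart muscle cells of an adult mouse no longer divide, and there the variants are the known replacement supply.

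The stem-loop is the sequence element that sets both kinds of gene apart, and it was read from the reference transcripts (GENCODE M21) to see which members carry it. The search asked for a fully paired stem, GGNNNT on the left and ANNNCC on the right, around a loop of 4 bases. It was found in the leading protein-coding transcript of 46 of 67 clustered members (68.7%), in 1 of 15 variants, and in 1.35% of 58797 protein-coding transcripts of the annotation. The forms found are shown here on the sense strand, with the paired stem in capitals and the loop in lower case.
Form in 26 clustered H1, H2A, H2B and H3 members, among them Hist1h1c and Hist2h2aa2: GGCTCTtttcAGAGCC
Form in 7 H4 members, among them Hist1h4h: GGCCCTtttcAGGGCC
Form in 6 members, among them Hist1h2bk and Hist1h3e: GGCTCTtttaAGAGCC
Form in Hist1h4i and Hist2h4: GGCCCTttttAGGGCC
Form in Hist1h4b and Hist1h4j: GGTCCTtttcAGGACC
Form in the variant H2afx: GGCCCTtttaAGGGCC
The remaining forms each occurred in 1 clustered member. Clustered H4 genes carried stems of their own: none of the H1, H2A, H2B or H3 clustered members shared a stem with them, whereas H2afx had the stem of Hist1h4h around another loop.

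Where the annotated transcript stops in relation to the stem-loop differed between members. In 23 clustered members the model ended 3 to 74 bases after it. In another 23 it ran on for 108 to 4884 bases, among them Hist1h1c (840 bases), Hist1h1e (1153 bases) and Hist4h4 (2445 bases). In 21 no stem-loop was found, most of them short models with a median length of 393 bases. The model length enters the TPM, so a gene whose RNA in fact stopped at the stem-loop has too low a TPM under a long model. The reads' positions are not in gene tables, and which end the RNAs had was not tested.

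**Figure D1:**
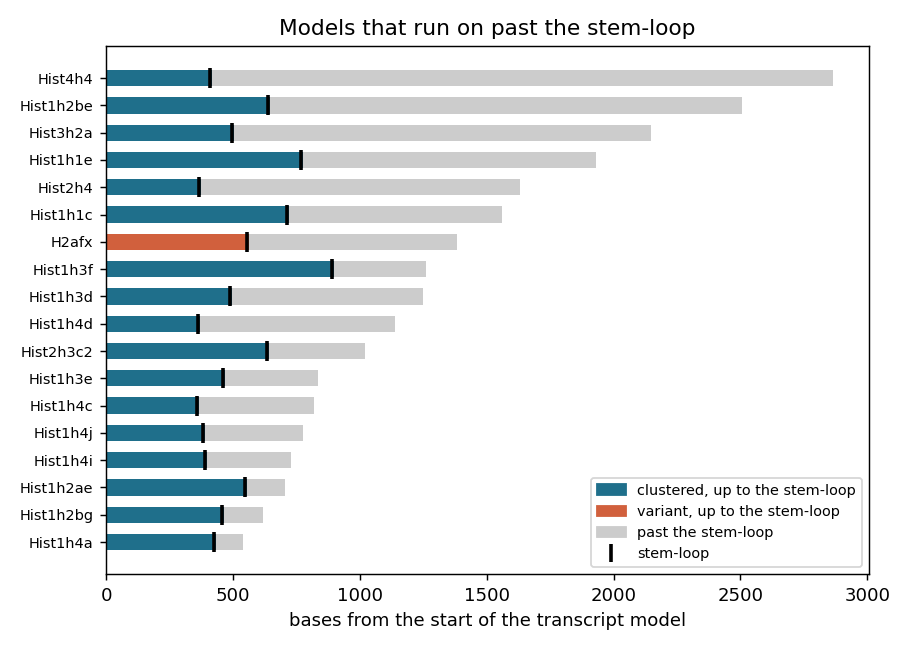
Leading protein-coding transcript model of each member with a mean of 1 TPM or more whose model runs on past the stem-loop. The x axis is the distance in bases from the start of the model, the coloured part is the model up to the stem-loop (tick), and the grey part lies past it: in Hist4h4 2445 bases follow the stem-loop, in Hist1h4a 108.

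Of the 82 members, 54 reached 1 TPM in both libraries: 45 of 67 clustered members (67.2%) and 9 of 15 variants (60%), beside 48.9% of 22028 protein-coding genes. All members together summed to 791 TPM in replicate 1 and 816 TPM in replicate 2. The clustered genes held 63.4 ± 2.17% of this sum and the variants 36.6 ± 2.17%. The sum was uneven: H3f3a, Hist1h4h, Hist2h2aa2 and Hist1h1c alone held 46.1 ± 2.27% of it. The median clustered member stood at 2.83 ± 0.926 TPM and the median variant at 4.11 ± 0.156 TPM.

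No read was assigned to 9 members in either library by either quantification. They were the variants H1foo, H1fnt, H2afb1, H2afb2 and H2afb3 and the clustered Hist1h2aa, Hist1h2ba, Hist1h2an and Hist2h3c1. H1foo is the linker histone of oocytes, H1fnt one of spermatids, and Hist1h2aa and Hist1h2ba encode histones known from testis. A count of 0 still allows 3 counts, which is 0.348 TPM for H2afb1 in replicate 1. The deposited credibility intervals of the level in replicate 1 reached 0.372 TPM for H1foo and 0.823 TPM for Hist1h2an, which has 11.0% of its 31-base words to itself. For Hist2h3c1, whose transcript holds no 31-base word of its own, the 0 cannot be told from an assignment of its reads to other genes. All of its words occur in Gm20634, an overlapping processed transcript on the same strand with 246 and 140 counts.

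**Figure D2:**
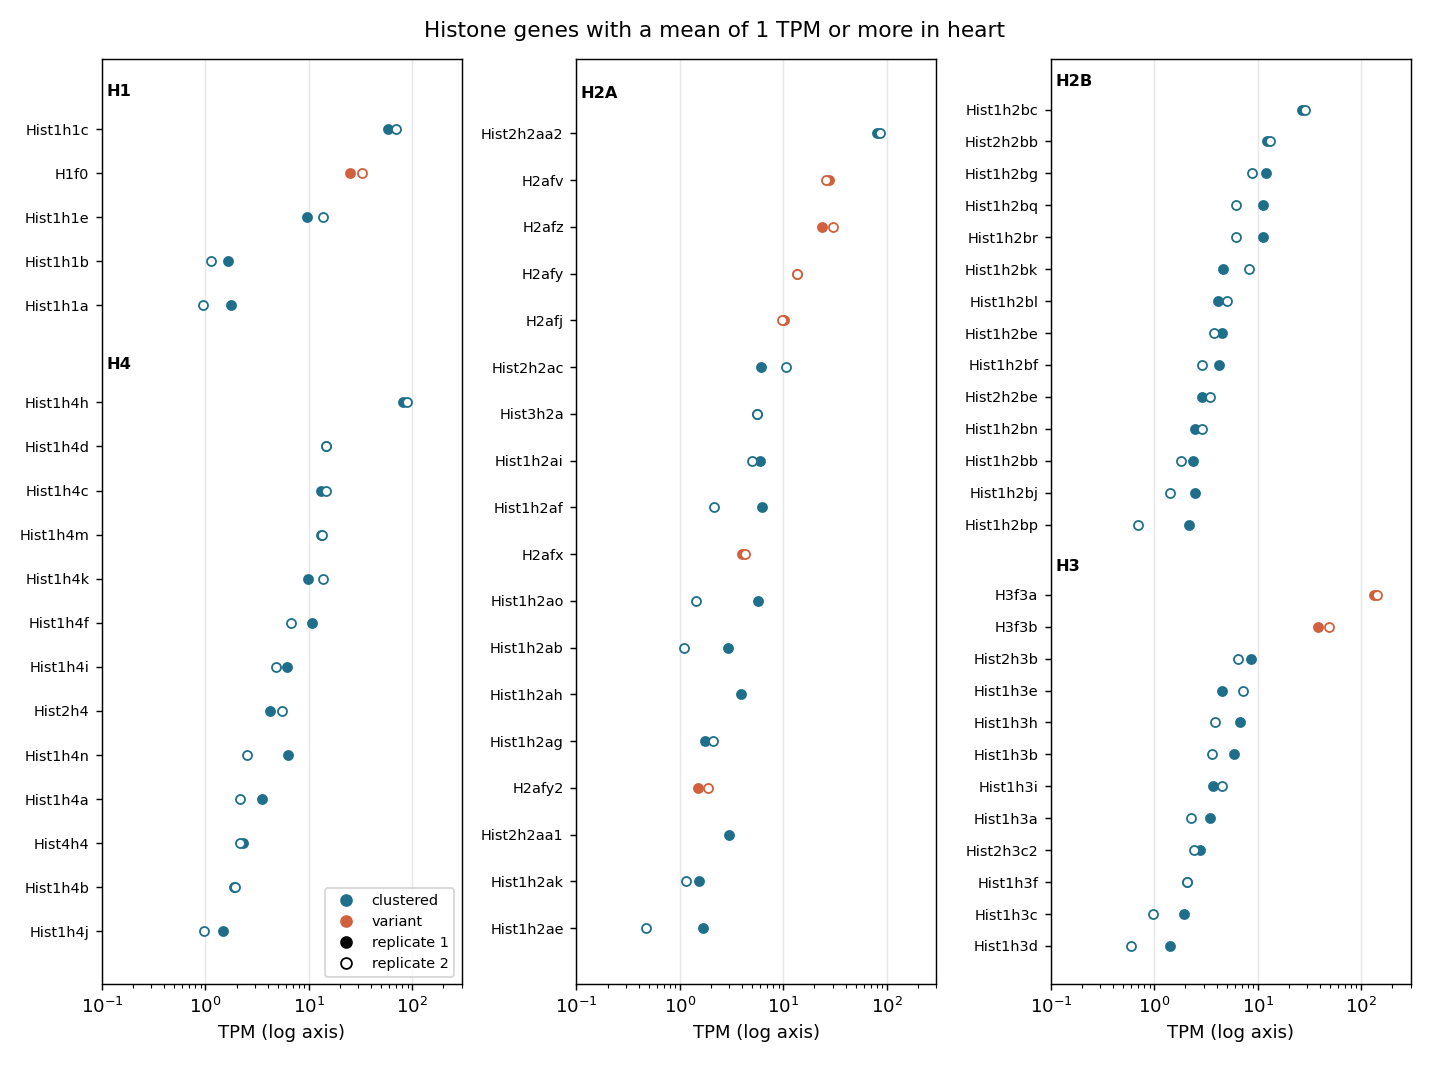
TPM (log axis) of every member with a mean of 1 TPM or more, by histone class, with clustered and variant genes in different colours. Filled points are replicate 1 and open points replicate 2; a library at 0 has no point (Hist1h2ah and Hist2h2aa1 in replicate 2). H3f3a is the highest gene, at 134 and 144 TPM.

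Among the linker histones, 1 clustered gene led. Hist1h1c (chr13:23738808-23740367, mm10), a somatic H1 gene known to stay expressed in cells that have stopped dividing, stood at 57.9 TPM in replicate 1 and 69.6 TPM in replicate 2. H1f0 (chr15:79028450-79030504), the replacement linker histone that accumulates in differentiated cells, stood at 24.9 and 32.4 TPM. Hist1h1c was 2.23 ± 0.127 times as high as H1f0, and both were higher in replicate 2. Hist1h1e, another somatic H1, came next with 9.65 and 13.6 TPM. Hist1h1a and Hist1h1b, S-phase H1 genes, had means of 1.35 ± 0.566 and 1.40 ± 0.361 TPM, and both were lower in replicate 2. Hist1h1d stood at 0.48 and 0.52 TPM on a model of 7425 bases, and Hist1h1t, the H1 of testis, 1 count in all. H1fx reached 0.330 ± 0.0707 TPM. Summed, the H1 variants had 29.0 ± 5.39 TPM and the clustered H1 genes 78.6 ± 10.1 TPM, a log2 ratio of variant over clustered of -1.45 ± 0.0832. Variants thus made up 26.9 ± 1.13% of the H1 sum.

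The H2A class had the most even division. The clustered genes summed to 122 ± 6.76 TPM and the variants to 83.1 ± 3.49 TPM, a variant share of 40.5 ± 2.34%. The largest part of clustered H2A RNA, 69.8 ± 6.02%, was assigned to the pair Hist2h2aa1 (chr3:96245497-96246082) and Hist2h2aa2 (chr3:96239749-96240276), near-identical copies that encode a core H2A. Summed, this pair stood at 83.2 TPM in replicate 1 and 86.9 TPM in replicate 2. The next were Hist2h2ac at 6.10 and 10.5 TPM, Hist3h2a at 5.54 TPM in each library, and Hist1h2ai at 5.96 and 4.96 TPM. The second quantification gave means of 8.80, 4.39 and 11.8 TPM in the same order, so their ranking is not settled. Of 18 clustered H2A genes, 9 reached 1 TPM in both libraries.

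Among the H2A variants, the genes for H2A.Z led. H2A.Z is found around gene starts and is encoded by H2afz and H2afv, which stood at 23.5 and 30.3 TPM and at 27.9 and 26.0 TPM. Their order changed from replicate 1 to replicate 2, so summed over transcripts they did not differ beyond their spread. In this quantification the rise of H2afz lay in H2afz-205, a processed transcript (2.92 and 9.38 TPM). The coding H2afz-201 stood at 20.5 and 20.9 TPM. H2afy, the main gene of macroH2A, an H2A with a large extra domain that marks the inactive X chromosome and silent regions, stood at 13.6 TPM in both libraries. Its relative H2afy2 was at 1.51 and 1.85 TPM, 8.17 ± 1.16 times lower. H2afj had a mean of 9.90 ± 0.375 TPM, and H2afx, whose protein is phosphorylated beside DNA breaks, 4.11 ± 0.156 TPM. H2afx is the variant with a stem-loop, and its model runs on for 822 bases past it.

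For H2B the rule found no variant, and 18 clustered genes summed to 99.6 ± 7.81 TPM. Hist1h2bc (chr13:23684199-23692908) led with 26.8 and 28.6 TPM. Its leading transcript has no stem-loop in its sequence and ends in a downstream exon far from the coding part. Hist2h2bb followed with a mean of 12.6 ± 0.615 TPM and Hist1h2bg with 10.4 ± 2.22 TPM. The identical copies Hist1h2bq and Hist1h2br summed to 22.4 and 12.3 TPM. The 4 highest H2B genes held 59.7 ± 0.808% of the class, less than the 74.4 ± 2.90% held by the 4 highest H4 genes.

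H3 was the class in which variants outweighed clustered genes. H3f3a (chr1:180800832-180813943) and H3f3b (chr11:116021912-116027962) both encode H3.3, the form of H3 placed into chromatin outside replication. H3f3a stood at 134 and 144 TPM and H3f3b at 38.0 and 49.2 TPM, a ratio of 3.22 ± 0.422. Together they had 182 ± 15.1 TPM, against 38.4 ± 5.30 TPM for the 12 clustered H3 genes. The log2 ratio of variant over clustered was 2.25 ± 0.319, and variants made up 82.5 ± 3.17% of the H3 sum. No clustered H3 gene stood out: the highest were Hist2h3b (8.60 and 6.43 TPM), Hist1h3e (4.55 and 7.28 TPM), Hist1h3h (6.70 and 3.84 TPM) and Hist1h3b (5.87 and 3.59 TPM). Of these 4 only Hist1h3e was higher in replicate 2. The second quantification gave Hist1h3b 8.27 TPM and Hist1h3h 2.48 TPM, the latter below Hist1h3a (3.07 TPM). The order below Hist2h3b is therefore not settled.

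H4 has no variant under the rule, and its 13 clustered genes summed to 171 ± 3.49 TPM, of which 12 genes reached 1 TPM in both libraries. Hist1h4h (chr13:23531050-23531519) stood at 80.5 and 89.4 TPM, 5.76 ± 0.439 times the level of the next gene, Hist1h4d. That ratio was 13.02 in the second quantification and 1.49 with Hist1h4d taken only to its stem-loop. Hist1h4d had a mean of 14.7 ± 0.0354 TPM, Hist1h4c 14.0 ± 1.10 TPM and Hist1h4m 13.3 ± 0.219 TPM in the first quantification. The second gave Hist1h4m 19.6 ± 2.07 TPM and Hist1h4d 8.73 ± 0.972 TPM, so the order of these 3 genes is not settled. The sum of clustered H4 was 4.49 ± 0.710 times the sum of clustered H3.

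**Figure D3:**
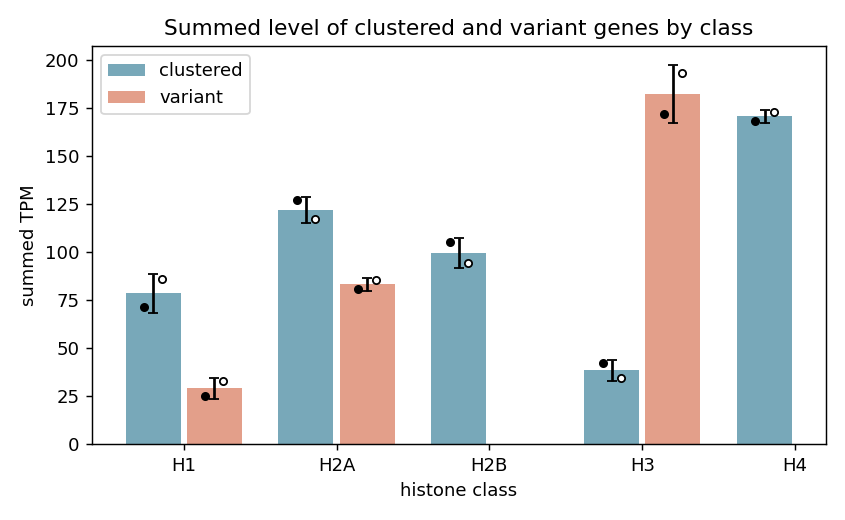
Summed TPM of clustered and variant genes in each class; bars are the mean of 2 libraries, error bars the SD, filled points replicate 1 and open points replicate 2. Variants exceed clustered genes in H3 (182 against 38.4 TPM) and lie below them in H1 and H2A; H2B and H4 have no variant under the rule.

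The class comparison depended on how length was treated. In raw expected counts, with no division by length, the H2A log2 ratio turned to 0.48, so variants then exceeded clustered genes. With every long model shortened to the end of its stem-loop, which was chosen after seeing the data, Hist1h1c rose to 150 ± 19.4 TPM, Hist1h4d to 57.1 ± 0.147 TPM and Hist1h1e to 31.5 ± 7.61 TPM. The clustered share of the histone sum was then 72.3 ± 1.35%. The direction in H1 and H3 was the same under each setting tried.

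Near-identical sequence limits what can be said of single clustered genes. A median of 41.1% of the 31-base words of a clustered member's transcript occurred in no other gene, against 84.2% for the variants. Some variants also shared much sequence: H3f3a, the highest member, had 37.2% of its words to itself and H2afz 65.5%. In 11 clustered members this share was below 10%, and Hist2h2aa2, Hist1h2bq, Hist1h2br and Hist2h3c1 had no such word. The deposited posterior SD of the assignment shows the same clustered genes as uncertain: it was 66.7 counts for Hist1h2bq on 114 counts in replicate 1, and 0 counts for H1f0 on 1695. For H3f3a it was 12.3 counts on 3872 in the same library.

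The second quantification divided these copies in another way. It gave Hist2h2aa1 33.0 ± 4.72 TPM instead of 1.49 ± 2.10, and Hist2h2aa2 68.4 ± 3.28 instead of 83.5 ± 4.73, while the pair summed to 101 TPM instead of 85.0. Hist1h4n went from 4.40 to 0.525 TPM, Hist1h2bp from 1.43 to 7.28 TPM and Hist1h2ah from 1.94 to 7.93 TPM. Hist1h2ao was listed at 0 in the second and at 3.56 TPM in the first, and its near-copy Hist1h2ap at 1.49 TPM in the second and 0 in the first. These 6 members with the largest ratio between the quantifications, Hist2h2aa1, Hist1h4n, Hist1h2bp, Hist1h2ah, Hist1h2ao and Hist1h2ap, had only 6.22 to 22.1% of their words to themselves. Members with many words of their own moved too: Hist2h4 (97.7%) went from 4.88 to 2.62 TPM and Hist1h4d (85.3%) from 14.7 to 8.73 TPM. Of 62 members at a mean of 1 TPM or more, 23 moved by at least 1.5 times. Of the 9 variants among them 1 did, H2afj (9.90 to 5.94 TPM). How many of all genes moved that far was not counted, so 23 of 62 has no baseline here. The median ratio of second over first was 0.843 over these 62 members. It was 0.943 over 11042 protein-coding genes at a mean of 1 TPM or more. Of the class sums, H4 was 179 TPM and H3f3a and H3f3b together 190 TPM in the second quantification. Clustered H2A went from 122 to 149 TPM and the H2A variants from 83.1 to 68.6 TPM, which moved the H2A log2 ratio from -0.55 to -1.11.

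**Figure D4:**
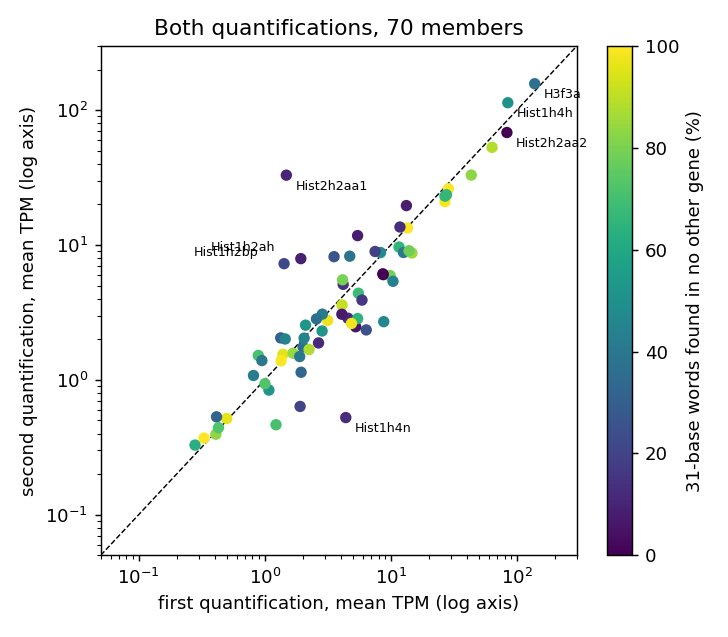
Mean TPM of 70 members above 0.05 TPM in both quantifications (log axes), coloured by the share of the transcript's 31-base words found in no other gene. The dashed line marks equal values: Hist2h2aa1 lies far above it (1.49 against 33.0 TPM) and Hist1h4n far below (4.40 against 0.525 TPM), both with few words of their own.

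The transcript tables split each variant gene among its transcripts. Of H3f3a, the protein-coding transcripts H3f3a-201 and H3f3a-207 held 49.2 ± 0.933% and 44.7 ± 1.25%. The second quantification turned their order, with 37.9% and 54.2%. Of H3f3b, the protein-coding H3f3b-201 held 47.4 ± 4.94% and H3f3b-204, annotated as a processed transcript without a coding sequence, 47.1 ± 6.65%. The second quantification gave H3f3b-201 only 10.8%, so this share is not settled by the tables. For H2afz the coding H2afz-201 held 87.1% in replicate 1 and 68.9% in replicate 2.

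H2afy showed a choice between exons. H2afy-202 contains an exon of 91 bases (chr13:56088252-56088342), and H2afy-201 has in its place 1 of 100 bases (chr13:56089758-56089857). H2afy-202 stood at 5.96 and 7.42 TPM and H2afy-201 at 0.56 and 0.13 TPM, so the former was higher in both libraries. A processed transcript, H2afy-204, held another 38.9 ± 2.58% of the gene, and the second quantification gave H2afy-202 48.2% and H2afy-204 37.7%.

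Many H2A and H2B genes lie head to head and share the DNA between their starts. There were 12 such pairs within 500 bases, all of H2A with H2B, with 175 to 305 bases between the annotated starts. In the pair Hist1h2ba and Hist1h2aa both genes were at 0, and in 9 of the other 11 the H2B gene had the higher mean TPM. Of these 9, the second quantification turned 2 round, Hist1h2ah with Hist1h2bk and Hist1h2ak with Hist1h2bn. Among the 9 pairs in which both genes had a level above 0, the ratio was 5 or more in 3. Hist1h2bc (27.7 ± 1.33 TPM) exceeded Hist1h2ac (0.410 ± 0.127 TPM) 67.6 times, or 10.5 times with Hist1h2ac taken only to its stem-loop. Hist1h2bg exceeded Hist1h2ae 9.65 times and Hist1h2bf exceeded Hist1h2ad 8.55 times, and in each of these 3 pairs the direction was the same in both libraries and both quantifications. In Hist1h2ag and Hist1h2bj the means were 1.91 ± 0.226 and 1.95 ± 0.757 TPM and their order changed between the libraries.

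The DNA between the starts is shown for 2 of the pairs with the largest ratios and for 1 pair led by its H2A gene, since each serves 2 genes of unequal level. Sequences are from RefSeq promoters (GRCm38.p6, plus strand), cropped between the annotated starts, and capitals mark TATAAA (the TATA box), CCAAT and ATTTGCAT (the octamer known from H2B promoters) on either strand; CCAAT can overlap the start of ATTTGCAT.
Hist1h2ac and Hist1h2bc, chr13:23683960-23684198: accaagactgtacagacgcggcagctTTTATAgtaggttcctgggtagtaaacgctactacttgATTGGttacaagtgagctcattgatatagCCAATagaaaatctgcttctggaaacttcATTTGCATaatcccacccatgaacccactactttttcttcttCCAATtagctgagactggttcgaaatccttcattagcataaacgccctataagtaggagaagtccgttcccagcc
Hist1h2ae and Hist1h2bg, chr13:23571221-23571395: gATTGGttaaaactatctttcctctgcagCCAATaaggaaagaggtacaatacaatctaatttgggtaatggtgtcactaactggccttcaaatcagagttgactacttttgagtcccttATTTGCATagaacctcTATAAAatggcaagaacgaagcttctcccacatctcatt
Hist2h2ac and Hist2h2be, chr3:96220881-96221118: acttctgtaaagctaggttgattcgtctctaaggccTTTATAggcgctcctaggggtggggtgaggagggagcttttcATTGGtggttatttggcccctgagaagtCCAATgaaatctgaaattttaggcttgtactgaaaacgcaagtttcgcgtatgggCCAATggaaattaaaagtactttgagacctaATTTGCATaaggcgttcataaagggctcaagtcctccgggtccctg
Each of the 3 holds 1 TATAAA and 1 ATTTGCAT, and 2 or 3 CCAAT. The pairs not shown differed in this. Hist1h2bf with Hist1h2ad, whose ratio was 8.55, held 0 TATAAA, 0 ATTTGCAT and 4 CCAAT. Hist1h2ah with Hist1h2bk and Hist1h2ba with Hist1h2aa held both TATAAA and ATTTGCAT, and the rest held no ATTTGCAT in the part covered. The 3 shown therefore do not tie these letters to an unequal level. In the window from 250 bases before to 50 after the start, ATTTGCAT was present in 43.8% of 16 H2B and 38.9% of 18 H2A clustered promoters, in none of the 6 H1, 10 H3 or 12 H4 promoters, and in 1.74% of 32851 promoters in the table. CCAAT was present in every H1, H2A, H2B and H3 clustered promoter that was matched, in 25.0% of the H4 promoters, in 71.4% of 14 variant promoters, and in 37.4% of all. TATAAA was present in 56.5% of 62 clustered, 7.14% of variant and 13.6% of all promoters. A match describes the letters in this window and no binding.

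Between the animals, no member met the rule for a difference (200 or more summed counts, a scaled ratio of at least 2-fold and an exact Clopper-Pearson counting interval, with an error of 0.1%, that excludes 1). The rule could be applied to 28 members, 19 clustered and 9 variant, and it called 1.08% of 10960 genes. With a 1.5-fold limit, Hist2h2ac (89 and 145 counts) and Hist1h3e (116 and 176 counts) were called, both higher in replicate 2, a direction in which 1.01% of all genes were called at that limit. With a minimum of 50 counts, 5 of 57 members were called, all higher in replicate 1, a direction in which 1.82% of all genes were called: Hist1h2af (65 and 21 counts), Hist1h2ao (75 and 18), Hist2h2aa1 (50 and 0), Hist1h3d (57 and 23) and Hist1h4n (72 and 28). Copies were then summed. The pair of Hist2h2aa1 with Hist2h2aa2 had 1244 and 1221 counts, a scaled ratio of replicate 2 over replicate 1 of 1.02 (counting interval 0.891 to 1.16). Hist1h4m with Hist1h4n had 210 and 162 counts, a ratio of 0.801 (0.563 to 1.13), so neither of these pairs was called. Hist1h2ao with Hist1h2ap had a ratio of 0.249 (0.0926 to 0.572) in the first quantification. The second gave 0.847 on 16 and 13 counts, with an interval of 0.217 to 3.13 that holds both 1 and the first value. Hist1h2bq with Hist1h2br had 225 and 117 counts, a ratio of 0.540 (0.366 to 0.785). This pair fell short of the 2-fold limit but passed the 1.5-fold limit, with replicate 1 higher. The second quantification gave it a ratio of 0.680 (0.387 to 1.17).

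Over the 48 clustered members with 50 or more counts, the log2 ratio (replicate 2 over replicate 1) had a median of -0.28, beside 0.01 over the 13571 genes that passed the same minimum. Of the 48, 30 (62.5%) lay below the median of all genes, where 50% of all genes lie by construction. With 200 or more counts the clustered median was 0.08, so the lower values came from the clustered genes with few counts. Summed over all 67 clustered genes, the scaled ratio was 1.03 (counting interval 0.985 to 1.07). The 9 variants had a median of 0.07 and ranged from -0.02 (H2afv) to 0.35 (H1f0). The counting interval lay below 1 for 7 clustered members (14.6%, against 8.68% of all genes) and above 1 for 5 (10.4%, against 7.74%). The former included the copies Hist2h2aa1, Hist1h2bq and Hist1h2br. Those above were Hist1h1c, Hist1h1e, Hist2h2ac, Hist1h2bk and Hist1h3e, and 2 variants, H1f0 and H3f3b, also lay above.

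Summed by class, where the division among copies matters less, the scaled ratio of replicate 2 over replicate 1 was 1.19 for clustered H1 (same interval 1.11 to 1.29), 0.927 for clustered H2A (0.835 to 1.03), 0.940 for H2B (0.853 to 1.04), 0.842 for clustered H3 (0.705 to 1.00) and 1.01 for H4 (0.927 to 1.10). The H2A sum rested on its leading pair: without Hist2h2aa1 and Hist2h2aa2, left out after seeing the data, the other clustered H2A genes had 905 and 698 counts, a ratio of 0.8004 (0.677 to 0.945). Over all clustered members of each class, in the same order, the second quantification gave 1.18, 0.919, 0.912, 0.807 and 1.02. The H1 variants had 1.28 (1.14 to 1.42), the H2A variants 1.04 (0.949 to 1.13) and the H3 variants 1.09 (1.03 to 1.16). These intervals, here and above, cover counting error only and leave out variation between animals and the error of assigning reads among copies.

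**Figure D5:**
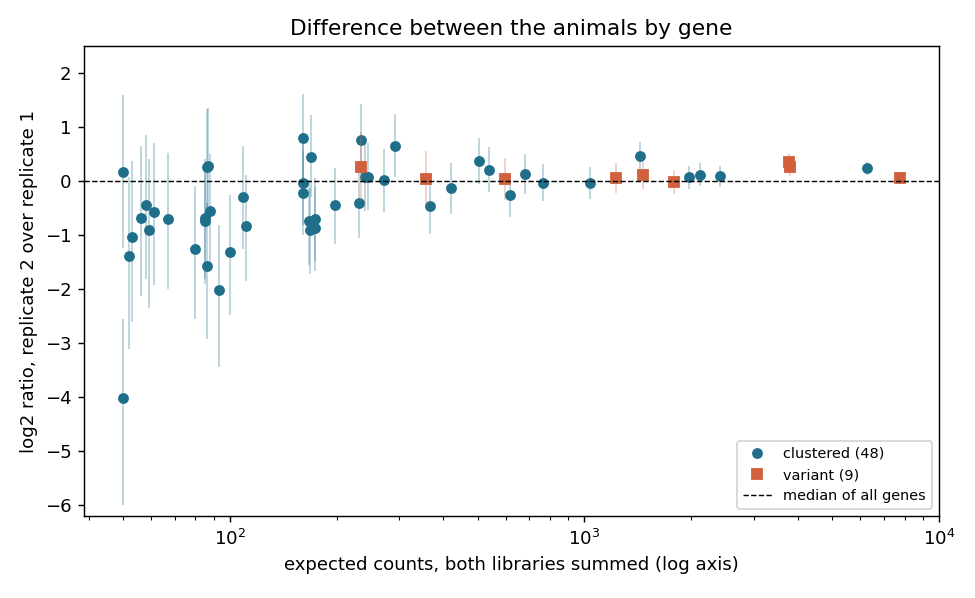
Log2 ratio of replicate 2 over replicate 1 (TMM-scaled) against the summed expected counts (log axis) for the 48 clustered and 9 variant members with 50 or more counts; lines are the exact counting intervals with an error of 0.1% and the dashed line is the median of all genes, 0.01. The variants lie within -0.02 to 0.35, and the clustered genes spread downward at low counts, with Hist2h2aa1 (50 and 0 counts) the lowest.

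Blood markers were also higher in replicate 1. The 4 erythroid markers summed to 11273 TPM in replicate 1 and 6127 in replicate 2, the 4 neutrophil markers to 9.61 and 1.43 TPM, and the 4 lymphocyte markers to 4.72 and 1.94 TPM. All 12 were higher in replicate 1, though under the rule for a difference only 1 gene of these lists, in the lymphocyte list, was called. The 21 genes of DNA replication and S phase summed to 40.8 and 40.1 TPM, of which 11 had the higher value in replicate 1 and 10 in replicate 2. Of the 10 mitosis genes 9 had the higher TPM in replicate 1, and without Cenpa the other 9 summed to 4.02 and 2.52 TPM. Several rest on few counts, such as Bub1 (18 and 0) and Ccnb2 (18 and 7). The exception by TPM, Aurkb (0.26 and 0.30), had 14 and 5 counts, so the split depends on the measure. The share of all genes with the higher TPM in replicate 1 was not counted. The part of these genes and of the blood markers in the lower replicate 2 values of the clustered genes with few counts was not tested. The tissue label was borne by all 8 heart muscle markers, which led with Myl2 at 7659 and 8307 TPM, and the testis germ cell markers summed to 0.01 and 0.05 TPM.

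The genes that make and place histones were also measured. Of the 15 genes for histone mRNA transcription and 3′ processing, 12 reached 1 TPM in both libraries, led by Sympk (32.7 ± 1.94 TPM), a scaffold of the cleavage complex, Upf1 (16.7 ± 0.445 TPM), a helicase of mRNA decay, and Cpsf3 (13.4 ± 0.297 TPM), the endonuclease. Slbp, which binds the stem-loop, stood at 3.06 and 3.97 TPM, and Npat, the activator of clustered histone genes, at 1.85 and 2.43 TPM. Of the 21 genes of DNA replication and S phase, 13 reached 1 TPM, with Pcna, the sliding clamp, at 12.6 and 13.4 TPM, Cdk2 at 3.45 ± 0.530 TPM and Rrm1 at 3.13 ± 0.0990 TPM. Of the 10 mitosis genes only Cenpa, which encodes the H3 variant of centromeres and falls outside the rule by its symbol, did so, at 24.6 and 21.1 TPM. Mki67 had 0.790 ± 0.0566 TPM and Top2a 0.730 ± 0.566 TPM.

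Histone chaperones bring each class to DNA by different routes. All 7 genes for H3.3 deposition reached 1 TPM, with Atrx at 19.6 ± 0.990 TPM, Asf1a at 10.1 ± 0.622 TPM and Ubn1 at 7.95 ± 0.163 TPM. Of 6 genes for replication-coupled deposition 2 did, Rbbp4 (22.8 ± 4.03 TPM), which also belongs to other chromatin complexes, and Nasp (5.17 ± 0.445 TPM), and Asf1b was at 0.665 ± 0.219 TPM. All 10 genes of H2A.Z exchange did, led by Anp32e (28.4 ± 2.31 TPM), Znhit1 (23.2 ± 0.431 TPM) and Srcap (18.4 ± 0.552 TPM). All 6 H2A-H2B chaperones did, led by Nap1l4 (66.1 ± 0.601 TPM), Npm1 (48.9 ± 0.827 TPM) and Set (34.7 ± 0.643 TPM). The share over all protein-coding genes, 48.9%, is given above for comparison.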

How the data were processed

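Total RNA of 2 hearts was sequenced, 1 library each, with 42.05 M and 39.98 M expected counts on mouse genes; the histone members held 0.0531% and 0.0572% of these. Per the file headers, the authors deposited gene and transcript tables in the RSEM column layout (expected counts, TPM, the percent of each gene held by a transcript, posterior SD) and a second quantification in the kallisto layout (estimated counts, TPM). Per the deposited file listings the assembly is mm10 and the annotation GENCODE M21. The aligner is not given in the sources used here, and neither is any tool version. The parents of these mice differ in sequence, and how reads of the CAST allele mapped was not tested.

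Expected counts were rounded. Libraries were scaled with TMM (edgeR 4.0.16; DESeq2 1.42.0 as an alternative) in R 4.3.3, with Python 3.11.15 and scipy 1.17.1 for the exact Clopper-Pearson intervals. No p-value was computed, since 2 libraries of 1 group allow none of use. The calling rule was tested on simulated data. Named members are the 4 highest clustered and 4 highest variant genes of each class, any that met the difference rule, the 6 with the largest ratio between quantifications, and 3 of each context list; others were named after their values were seen. Members, lists and rules were chosen with earlier results of these data known. Promoters matched 76 of 82 members.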

Additional observations from a re-analysis of the deposited data

Results flagged for a closer look

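Of the genes with a histone symbol but no protein-coding transcript, 3 had more reads in both libraries than the 3 counts that a count of 0 allows, and they belong to no comparison above. Hist1h2al, annotated as a processed pseudogene with a model of 339 bases, had 167 expected counts in replicate 1 and 142 in replicate 2 (19.1 TPM on average), with a posterior SD of 5.80 and 5.76 counts, but was listed at 0 in the second quantification. Added to the clustered H2A genes, it would raise their sum from 122 to 141 TPM. H3f3c, a processed pseudogene, had 19 and 27 counts with a posterior SD of 12.9 and 10.2, and was at or near 0 TPM in the second quantification. H3f3aos, antisense to H3f3a, had 66 and 92 counts (0.68 and 1.00 TPM), and the second quantification gave 1.09 and 0.996 TPM.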

How the results depend on the processing

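The number of variants at 1 TPM stayed at 9 under each setting except the 5 TPM threshold (7), and the clustered number was 45 to 56 without either replicate, 17 at a threshold of 5 TPM. Leaving out either replicate gave a clustered share of 61.9 to 64.9% and H3 log2 ratios of 2.03 to 2.48. The second quantification gave a variant median of 3.59 TPM and log2 ratios of variant over clustered of -1.33 (H1) and -1.11 (H2A). Counts per full length gave a variant median of 4.47 TPM and an H2A ratio of -0.39. Counts without length correction gave a clustered share of 53.4% and ratios of -1.09 (H1), 0.48 (H2A, turned round) and 3.03 (H3); the cause was not tested. Protein-coding transcripts alone gave a clustered share of 66.3%. Members with 50 or more counts had medians of 4.63 TPM (clustered) and 24.8 TPM (variant), since the genes near 0 drop out.

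Length taken only up to the stem-loop, chosen after seeing the data, gave a clustered share of 72.3%, a variant median of 9.90 TPM and ratios of -2.68 (H1), -0.70 (H2A) and 1.90 (H3). Adding Hist1h2al, also chosen then, gave -0.76 (H2A). The number of members differing between the animals was 5 with a minimum of 50 counts, 7 with none, 2 at 1.5-fold, and 0 with DESeq2 or total-count scaling or the second quantification. With a minimum of 200 counts the clustered median log2 ratio between the animals turned to 0.077; the cause was not tested. Of the 36 named members, 25 moved by more than the spread between libraries in the second quantification and 9 per full length. That spread is the SD of 2 values, so these numbers do not measure the size of the change. In the second quantification H2afy moved by this measure (13.6 to 13.4 TPM) and Hist1h2bq did not (8.72 to 6.04 TPM). No paired analysis was possible because the series has 1 group, and both library totals and copies of near-identical sequence limit single genes under 200 counts.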
